A study of Mus musculus with 30 samples.

Results

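Vitamin C (ascorbate) synthesis and uptake were followed through 5 genes of the 41128 in the count files: Gulo, Akr1a1, Slc23a1, Slc23a2 and Slc23a3. They were chosen by name, with values of the same kidneys in view: Gulo was near 0 on the standard diet and present on the high fat diet. The diet differences of the members in the kidney are therefore given as a description, with no test. All 5 members had counts in the kidney and passed the filter on low counts there, Gulo through its HFD kidneys alone, whereas in the aorta 3 of the 5 passed it and Gulo and Slc23a3 did not.

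Unlike humans, mice make their own vitamin C. UDP-glucose is oxidised to UDP-glucuronate, glucuronate is reduced to gulonate by the aldehyde reductase Akr1a1, and gulonolactone is oxidised to ascorbate by L-gulonolactone oxidase, the product of Gulo. Synthesis is known above all from the liver, while the kidney is known for reabsorbing filtered ascorbate in the proximal tubule through the sodium-coupled transporter Slc23a1, with Slc23a2 as the widely expressed transporter of other tissues. Slc23a3 belongs to the same family by sequence and is not established as an ascorbate transporter.

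RNA was sequenced from single male mice, 16 kidneys and 14 aortae, at 16354880 to 28331314 counts per kidney library and 6403699 to 13052870 per aorta library. All mice had the strain label C57Bl6J and carried a Cre recombinase that tamoxifen switches on, driven by the smooth muscle myosin promoter Smmhc, and all received tamoxifen (1 mg per day for 5 days). In knockout (KO) mice both Egfr alleles were floxed, and wild-type (WT) mice carried the Cre without loxP sites. Starting 7 days later, at 6 weeks of age, they received a standard fat diet (SFD) or a high fat diet (HFD) for 18 weeks. The kidney groups WT-SFD, WT-HFD, KO-SFD and KO-HFD held 4 mice each, and the aorta groups held 3, 4, 3 and 4. For 3 mice both tissues were sequenced. Cre acts in smooth muscle cells, which are a small part of the kidney, so the KO label says little about Egfr in whole kidney RNA.

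Values are FPM, the fragment count per 1e6 fragments after scaling by edgeR's TMM factors, and levels between genes are compared as RPKM, which also divides by exon length. Egfr, the targeted receptor, was first read in every library. In the aorta it was 46.7, 39.5 and 54.3 FPM in WT-SFD, 65.1, 57.0, 51.2 and 57.0 in WT-HFD, 26.8, 35.5 and 28.0 in KO-SFD, and 27.5, 40.6, 39.7 and 33.4 in KO-HFD. On either diet the KO aortae were all lower than the WT aortae, with log2 fold changes of -0.64 (SE 0.166, edgeR adjusted p = 0.531) on SFD and -0.70 (SE 0.142, edgeR adjusted p = 0.13) on HFD, neither past the threshold of 0.05. In the kidney Egfr was 36.9 to 58.4 FPM in WT and 40.5 to 60.8 in KO mice, and the genotypes overlapped. These counts cover all exons and all cell types, so they cannot show how much of the floxed part was lost in smooth muscle.

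The tissue labels were checked against marker genes. Kap, the androgen-regulated protein of the proximal tubule, led the tubule markers of the kidney at 16010 FPM, and Slc34a1, the phosphate transporter of the same segment, ran from 5895 to 10805 FPM over the 16 kidneys. Acta2, smooth muscle actin, averaged 6954 FPM in the aorta, where the most abundant tubule marker was Slc27a2 at 6.78 FPM. Both tissues thus held the markers of their label.

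Gulo lies on the minus strand of chromosome 14 (ENSMUSG00000034450, GRCm38 positions 65986786 to 66009207, exon length 2263 bases), and no other annotated gene overlaps it. In the kidneys of WT-SFD mice 0, 5, 3 and 4 reads were counted, or 0, 0.314, 0.103 and 0.179 FPM. In WT-HFD kidneys the counts were 100, 68, 50 and 86, or 4.63, 3.47, 2.84 and 4.11 FPM. In KO-SFD kidneys they were 2, 0, 1 and 0, or 0.0964, 0, 0.0511 and 0 FPM, and in KO-HFD kidneys 87, 147, 188 and 86, or 4.72, 6.36, 11.9 and 4.32 FPM. Each of the 8 HFD kidneys lay above each of the 8 SFD kidneys, with a wide gap between 0.314 and 2.84 FPM. Of the SFD kidneys 4 had 0 or 1 read and 4 had 2 to 5, where 3 reads correspond to 0.103 to 0.190 FPM depending on the library.

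**Figure D1:**
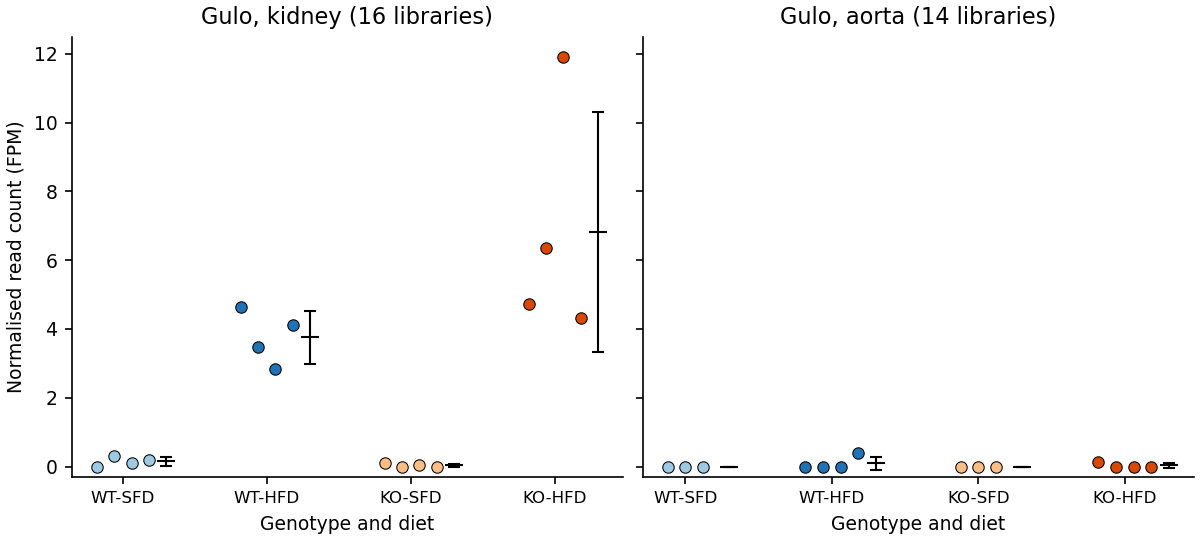
Normalised read count of Gulo (FPM, y axis) in every library by genotype and diet (x axis), kidney at left and aorta at right. Points are single mice and the bar beside them is the mean with SD. All 8 HFD kidneys sit between 2.84 and 11.9 FPM, the SFD kidneys at or below 0.314, and 12 of the 14 aortae at 0.

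Group means of Gulo were 0.149 ± 0.132 FPM in WT-SFD, 3.76 ± 0.775 in WT-HFD, 0.0369 ± 0.0464 in KO-SFD and 6.83 ± 3.50 in KO-HFD (SD, n = 4 each). Summed over the libraries of a group, the 304 reads of WT-HFD against 12 of WT-SFD gave a ratio of 27.3. In KO mice 508 reads on HFD stood against 3 on SFD, a ratio of 169. The KO ratio rests on 3 reads: without KO-SFD replicate 1, which held 2 of them, it was 371. The fitted log2 differences were 4.70 (SE 0.513) in WT and 7.22 (SE 0.595) in KO, and for so few SFD reads such fitted values depend on the prior count. In whole kidney RNA, fewer cells of a type and less RNA per cell cannot be told apart.

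The comparisons between genotypes were not used to choose the members. On SFD the 12 WT reads against 3 KO reads gave a ratio of 3.59, given as a description. No test or interval is given on SFD, since Gulo passed the filter only through the HFD kidneys. The ratio rests on single reads: without KO-SFD replicate 1 it was 7.89, and without WT-SFD replicate 2 it was 2.57. The mice of the genotypes overlapped on SFD, and at this depth it was not settled whether they differed. On HFD Gulo was 1.73 times higher in KO by pooled reads (95% interval 1.49 to 2.00, exact binomial, counting error only). The mice overlapped, however: the lowest KO-HFD kidney had 4.32 FPM and the highest WT-HFD kidney 4.63. The edgeR log2 fold change was 0.82 (SE 0.265), with an unadjusted p of 0.00504 and an adjusted p of 1.00 over all genes. Without KO-HFD replicate 3, the kidney with 11.9 FPM, the log2 fold change was 0.46. No test of the diet by genotype interaction is given for Gulo, because its diet differences chose the members and rest on the few SFD reads.

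Gulo was next to absent from the aorta. The counts were 3 in WT-HFD replicate 4 (0.384 FPM), 1 in KO-HFD replicate 1 (0.122 FPM) and 0 in the other 12 libraries, where 3 reads correspond to 0.240 to 0.433 FPM. A level such as that of the HFD kidneys, at least 2.84 FPM, would have stood clear of this floor.

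Akr1a1, the reductase that makes gulonate, was abundant in every kidney. It lies on chromosome 4 (ENSMUSG00000028692, GRCm38 positions 116636510 to 116651680, minus strand, exon length 2750 bases). Its levels were 2313, 3388, 1945 and 2524 FPM in WT-SFD, 1821, 2878, 2090 and 2245 in WT-HFD, 1899, 2513, 1834 and 2450 in KO-SFD, and 2076, 2101, 3231 and 2471 in KO-HFD. The 4 groups overlapped throughout, with means of 2543 ± 612, 2258 ± 449, 2174 ± 357 and 2470 ± 539 FPM. The log2 diet difference of Akr1a1 was -0.17 (SE 0.203) in WT and 0.18 (SE 0.203) in KO. KO against WT gave -0.23 on SFD (SE 0.203, edgeR adjusted p = 0.736) and 0.13 on HFD (SE 0.203, adjusted p = 1.00). Gulo and Akr1a1 were both highest in KO-HFD replicate 3 among the 8 HFD kidneys, but Akr1a1 did not separate the diets.

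Slc23a1, the ascorbate transporter of the proximal tubule, was the most abundant of its family in the kidney. Its gene is on chromosome 18 (ENSMUSG00000024354, GRCm38 positions 35614604 to 35627244, minus strand, exon length 3238 bases). It was 346, 274, 327 and 377 FPM in WT-SFD, 331, 343, 339 and 357 in WT-HFD, 313, 295, 381 and 282 in KO-SFD, and 302, 307, 277 and 344 in KO-HFD. The mice of all groups overlapped between 274 and 381 FPM, and the log2 diet differences were 0.05 in WT and -0.05 in KO (SE 0.112 each). For Slc23a1, KO against WT gave -0.06 on SFD (SE 0.112, edgeR adjusted p = 0.877) and -0.16 on HFD (SE 0.112, adjusted p = 1.00). The 3' end of Slc23a1 overlaps Paip2, a translation regulator on the opposite strand with 37242 reads over the 16 kidneys, and the strand setting of the counting is not given in the sources used here, so reads in the shared stretch cannot be told apart.

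Slc23a2, the transporter of most other tissues, was low in the kidney. It lies on chromosome 2 (ENSMUSG00000027340, GRCm38 positions 132052500 to 132145110, minus strand, exon length 7951 bases). It was 24.4, 20.4, 23.3 and 19.2 FPM in WT-SFD, 26.5, 17.4, 26.7 and 23.3 in WT-HFD, 23.2, 12.2, 17.9 and 17.9 in KO-SFD, and 22.4, 24.8, 20.5 and 21.5 in KO-HFD. KO-SFD replicate 2 was the lowest kidney, and every pair of groups overlapped. For Slc23a2 the log2 diet differences were 0.10 (SE 0.165) in WT and 0.33 (SE 0.168) in KO. KO against WT gave -0.29 on SFD (SE 0.167, edgeR adjusted p = 0.630) and -0.07 on HFD (SE 0.165, adjusted p = 1.00).

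Slc23a3 was the only member besides Gulo whose SFD and HFD kidneys did not overlap, and this held in WT alone. It lies on chromosome 1 (ENSMUSG00000026205, GRCm38 positions 75125541 to 75133890, minus strand, exon length 2167 bases). The levels were 15.3, 19.0, 22.3 and 23.6 FPM in WT-SFD and 26.8, 32.0, 30.8 and 35.2 in WT-HFD, against 22.2, 28.4, 25.5 and 18.4 in KO-SFD and 23.8, 24.5, 17.3 and 25.7 in KO-HFD. All 4 WT-HFD kidneys lay above all 4 WT-SFD kidneys, while the KO groups covered the same range. The fitted log2 diet difference of Slc23a3 was 0.63 (SE 0.159) in WT and -0.05 (SE 0.160) in KO. Of all 15034 genes tested in the kidney, 5.01% did not overlap between the diets in WT and 8.87% in KO. Gulo was chosen for this separation, and of the other 4 members it held for Slc23a3 in WT and for 0 in KO.

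Between genotypes on HFD, Slc23a3 was lower in every KO kidney than in every WT kidney (means 22.8 ± 3.77 and 31.2 ± 3.47 FPM). The log2 fold change was -0.45 (SE 0.159, unadjusted p = 0.0120), and the edgeR adjusted p was 1.00. On SFD it was 0.23 (SE 0.161, adjusted p = 0.670), with overlapping mice. The diet by genotype interaction of Slc23a3 was -0.68 (SE 0.226, edgeR unadjusted p = 0.00837, adjusted p = 1.00), and it ran from -0.78 to -0.56 when each library was left out. The difference between the genotypes in how Slc23a3 went with diet thus did not pass the correction.

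Set beside all genes, the genotype tests called none of the members tested in the kidney, which on SFD and for the interaction were the 4 besides Gulo. On SFD edgeR called 0.0133% of the genes tested at the adjusted limit of 0.05 and 8.69% at an unadjusted 0.05, with 0 of the 4 members at either limit, and the groups did not overlap for 3.98% of genes and for 0 of the 5 members. On HFD it called 0% at the adjusted and 1.75% at the unadjusted limit, the latter including Gulo (higher in KO) and Slc23a3 (lower in KO), and 1.32% of genes did not overlap, of the members Slc23a3. The interaction called 0% at the adjusted limit and 3.35% at the unadjusted limit, including Slc23a3. DESeq2 called 0 of the members in each of these 3 comparisons, and 0.173% of all genes on SFD, 0.00665% on HFD and 0.00665% for the interaction.

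**Figure D2:**
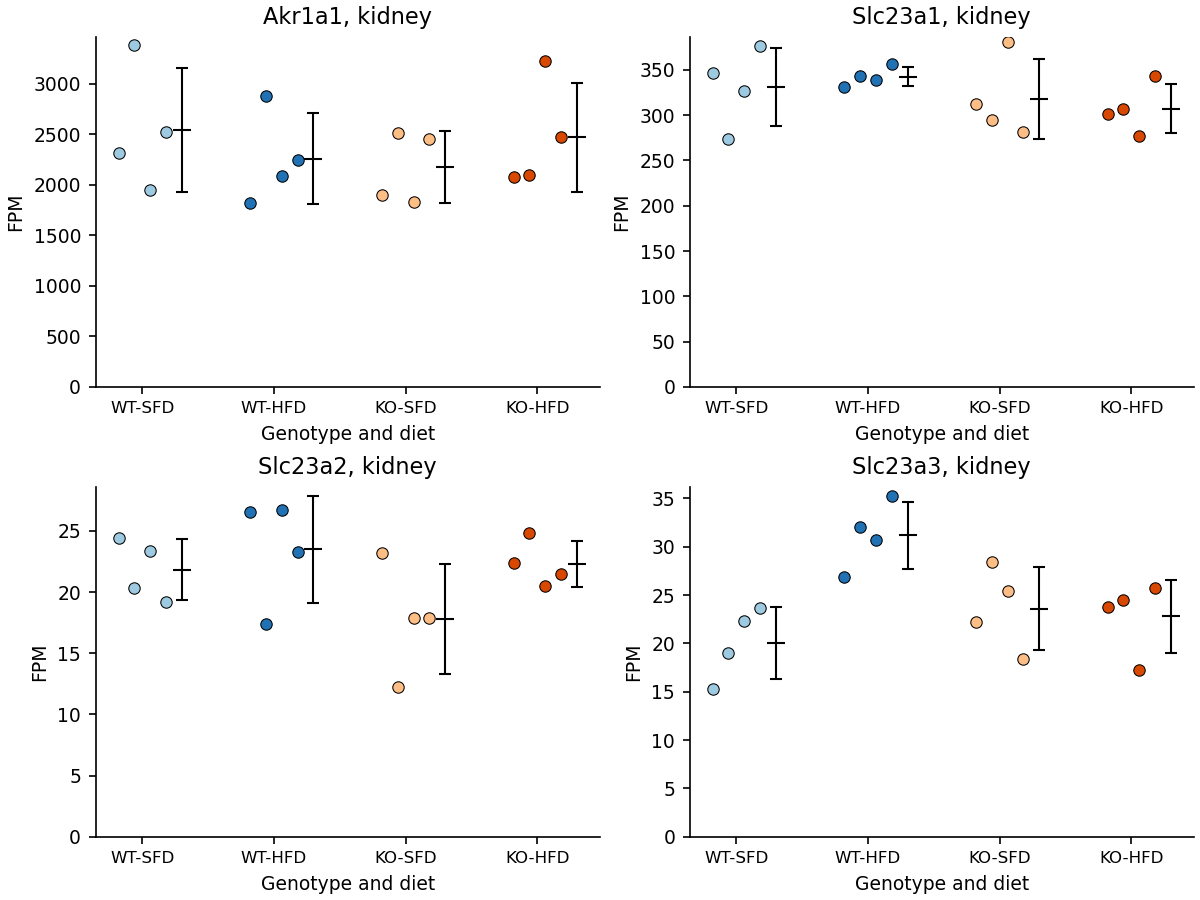
Normalised read count (FPM, y axes from 0) of Akr1a1, Slc23a1, Slc23a2 and Slc23a3 in each kidney by genotype and diet. Points are single mice and the bar beside them is the mean with SD. The groups overlap for each gene, apart from Slc23a3, where the WT-HFD mice (26.8 to 35.2 FPM) lie above WT-SFD and KO-HFD.

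One kidney stood at the edge for several members. KO-HFD replicate 3 had the highest Gulo (11.9 FPM) and Akr1a1 (3231 FPM) and the lowest Slc23a1 (277 FPM) and Slc23a3 (17.3 FPM) of the 8 HFD kidneys. It was also the highest of the 16 kidneys for Pck1, the gluconeogenic enzyme (6980 FPM), for Ttr, the thyroid hormone carrier (556 FPM), and for Slc5a2, the glucose transporter SGLT2 of the proximal tubule (1453 FPM). Its summed markers of the distal nephron and podocytes were the lowest of the 16 kidneys (4729 FPM). Its summed proximal tubule markers, at 36047 FPM, lay inside the range of the other kidneys. Whether this kidney differed in its tissue makeup was not tested.

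Per length, the order of the members differed between the tissues. In the kidney Akr1a1 had 859 RPKM (lowest to highest 662 to 1232), Slc23a1 100 (84.6 to 118), Slc23a3 11.3 (7.05 to 16.3), Slc23a2 2.69 (1.54 to 3.36) and Gulo 1.19 (0 to 5.26). The first 4 places did not overlap over the 16 kidneys. Gulo came last on SFD (0.0659 and 0.0163 RPKM in WT and KO), was 1.66 ± 0.342 against 2.95 ± 0.547 for Slc23a2 in WT-HFD, and in KO-HFD its 3.02 ± 1.55 RPKM and the 2.81 ± 0.233 of Slc23a2 lay within their spread. In the aorta the order was Akr1a1 53.7 RPKM (49.5 to 60.1), Slc23a2 5.36 (4.43 to 6.28), Slc23a1 1.03 (0.496 to 1.47), Slc23a3 0.248 (0.0666 to 0.618) and Gulo 0.0160 (0 to 0.170). There the first 3 did not overlap, whereas Slc23a3 overlapped both Slc23a1 and Gulo. The tissues were sequenced at different places with different depth and RNA makeup, so their levels are set side by side without a test.

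**Figure D3:**
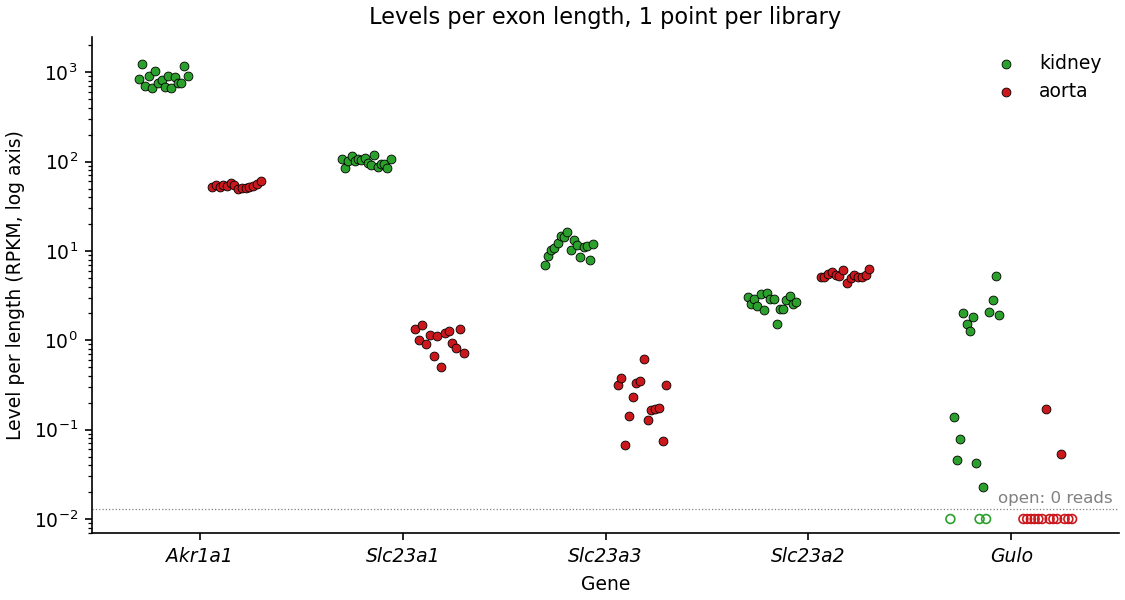
Level per exon length (RPKM, log y axis) of the 5 members in each of 16 kidneys (green) and 14 aortae (red). Open points at the bottom are libraries with 0 reads, which a log axis cannot show. Slc23a1 is above Slc23a2 in all kidneys and below it in all aortae.

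None of the 3 members tested in the aorta passed the test for diet. Akr1a1 was 143, 152 and 144 FPM in WT-SFD, 152, 145, 157 and 151 in WT-HFD, 136, 138 and 139 in KO-SFD, and 142, 148, 156 and 165 in KO-HFD. Each KO-HFD aorta was above each KO-SFD aorta, as for 7.04% of all genes in either direction, with a log2 difference of 0.15 (SE 0.0800, edgeR adjusted p = 0.664), and in WT the difference was 0.05 (SE 0.0800, adjusted p = 0.826) with overlap. Slc23a2 ran from 40.3 to 48.3 FPM in WT and from 35.2 to 49.9 in KO aortae, with log2 diet differences of 0.10 (SE 0.108, edgeR adjusted p = 0.697) and 0.15 (SE 0.108, adjusted p = 0.768). Slc23a1 was at 1.61 to 4.76 FPM over the 14 aortae, with differences of -0.40 (SE 0.323, edgeR adjusted p = 0.573) in WT and -0.05 (SE 0.327, adjusted p = 0.983) in KO. Slc23a3 had 1 to 10 reads per aorta and was not tested.

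KO against WT gave no call for these 3 genes in the aorta. On SFD the log2 fold changes were -0.09 for Akr1a1, -0.34 for Slc23a1 and -0.09 for Slc23a2 (edgeR adjusted p = 0.851, 0.860 and 0.900), but 0.20 for Akr1a1 and 0.21 for Slc23a2 when libraries were scaled by their totals in place of TMM. The 3 KO-SFD aortae lay below the 3 WT-SFD aortae for Akr1a1 in TMM-scaled FPM, as 8.57% of all genes did not overlap there in either direction. On HFD the values were 0.02, 0.01 and -0.04 (edgeR adjusted p = 1.00 each), the last turning to 0.032 with library totals. The interaction was 0.10 for Akr1a1, 0.35 for Slc23a1 and 0.05 for Slc23a2 (edgeR adjusted p = 1.00 each), and with library totals -0.12 for Akr1a1 and -0.18 for Slc23a2. Across all 14796 genes tested, edgeR called 0% at an adjusted p under 0.05 in WT and 0% in KO for diet, 0.0811% on SFD and 0.0811% on HFD for genotype, and 0% for the interaction. At an unadjusted p under 0.05 the shares were 17%, 7.85%, 6.54%, 5.35% and 4.37%, and DESeq2 called 4.5%, 0.0541%, 0.142%, 0.27% and 0.0135%. None of the 3 members was called in any of the 5 comparisons by edgeR or DESeq2, and none had an unadjusted p under 0.05.

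The rest of the ascorbate pathway was read from a list of 55 further genes, of which 47 were tested in the kidney, 3 were below the filter, 4 had 0 counts in every library and 1 had no row. Over all genes tested, the diet comparison called 0.964% in WT (0.818% higher on HFD and 0.146% lower) and 2.39% in KO (1.57% higher and 0.825% lower), and at an unadjusted p under 0.05 it called 8.05% and 16.1%. DESeq2 called 1.75% of all genes in WT and 4.62% in KO. In WT edgeR called 0 of the 47, with 4 higher and 5 lower at an unadjusted p under 0.05, and DESeq2 called 1. In KO 1 gene rose and 1 fell, with 7 higher and 6 lower unadjusted, and DESeq2 called 6. The median log2 difference of the list was -0.02 in WT and 0.08 in KO, beside 0.00 for all genes in both. Genotype and interaction comparisons called 0 of the 47 by edgeR and by DESeq2: at an unadjusted p under 0.05 there were 3 higher and 3 lower on SFD, 0 higher and 1 lower on HFD, and 0 for the interaction.

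Of the further genes listed, those of the steps before Gulo that were tested did not pass the test for diet. Ugp2, which makes UDP-glucose, differed by 0.12 in WT and 0.14 in KO on the log2 scale, and Ugdh, which oxidises it to UDP-glucuronate, by -0.19 (SE 0.123, edgeR adjusted p = 0.83) and -0.33 (SE 0.124, adjusted p = 0.198). Akr1b3, the aldose reductase, had -0.94 (SE 0.451, edgeR adjusted p = 0.629) and -0.82 (SE 0.442, adjusted p = 0.387), with levels from 8.36 to 42.9 FPM. Rgn, whose product forms the lactone that Gulo oxidises, is listed at 0 in every library, as are the other genes of chromosome X, so this step could not be read. In the part of glucuronate metabolism that connects to this route, Miox, the oxygenase that makes glucuronate from inositol, was the most abundant per length at 1864 RPKM and differed by 0.12 in both genotypes (SE 0.227, edgeR adjusted p = 0.983 and 0.823). Dcxr, the xylulose reductase that follows gulonate on the way to pentoses, differed by 0.35 (SE 0.225, edgeR adjusted p = 0.818) in WT and 0.16 (SE 0.224, adjusted p = 0.761) in KO. None of the 4 tested genes of that group had an unadjusted p under 0.05 in either genotype.

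**Figure D4:**
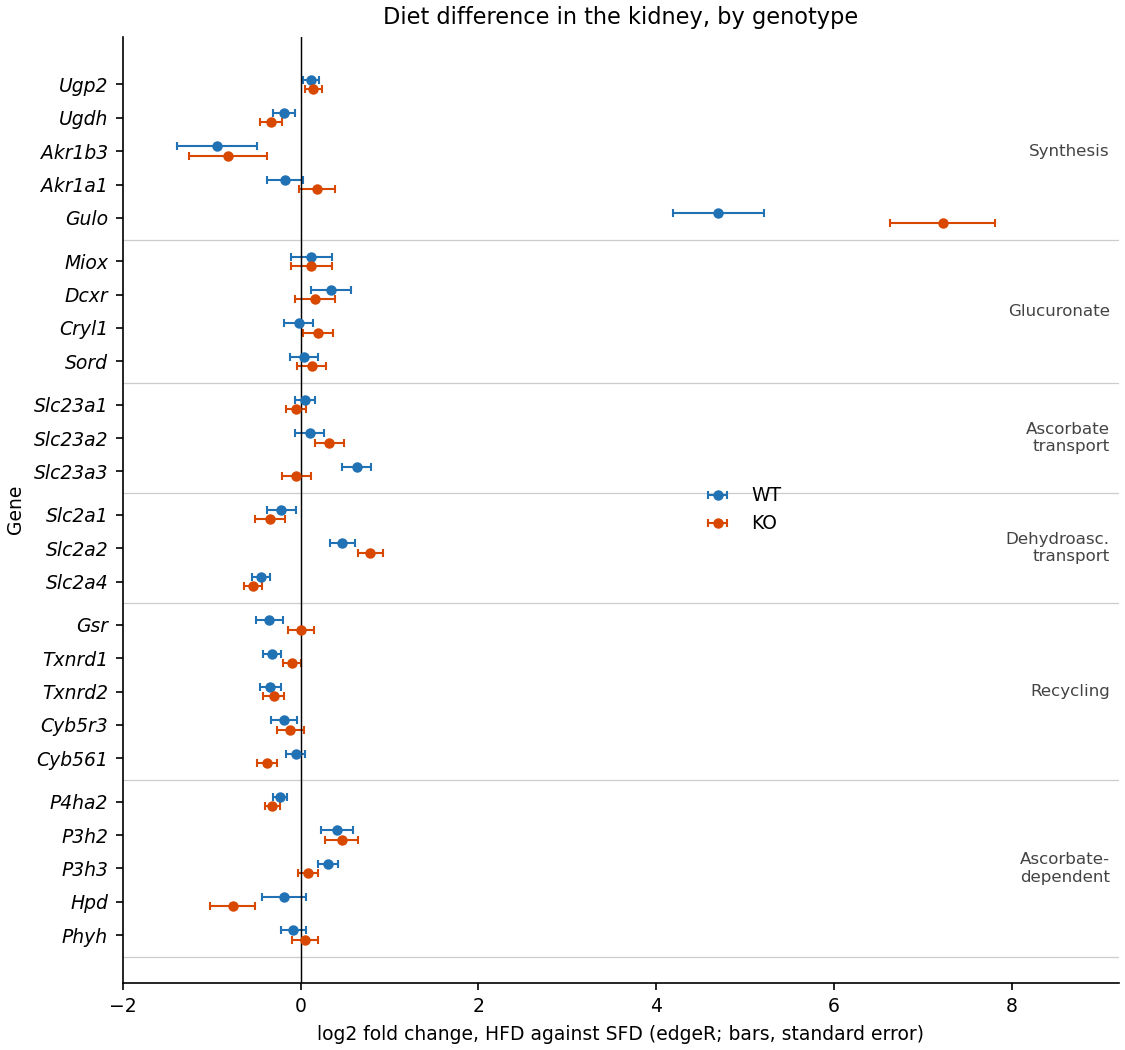
Fitted log2 fold change of HFD against SFD in the kidney (x axis, with SE as bars) for the 5 members and named genes of the pathway (y axis, grouped by role), in WT (blue) and KO (orange). Gulo stands at 4.70 and 7.22. The other members and the named pathway genes, transcription factors aside, lie from -0.94 (Akr1b3 in WT) to 0.79 (Slc2a2 in KO).

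Oxidised vitamin C, dehydroascorbate, enters cells through glucose transporters, and the pathway genes called by edgeR were 2 of these. Slc2a2 (GLUT2), the basolateral glucose transporter of the proximal tubule, was 118, 104, 83.1 and 116 FPM in WT-SFD, 148, 128, 163 and 142 in WT-HFD, 88.1, 88.6, 89.8 and 87.9 in KO-SFD, and 117, 131, 193 and 171 in KO-HFD. It rose in KO by 0.79 (SE 0.144, edgeR adjusted p = 0.00569), and in WT it had 0.47 (SE 0.143, adjusted p = 0.208), with no overlap between the diets in either genotype. Slc2a4 (GLUT4), the insulin-responsive transporter of muscle and fat, was 33.1, 45.2, 41.1 and 38.0 FPM in WT-SFD, 31.3, 27.8, 28.2 and 28.3 in WT-HFD, 42.2, 41.2, 48.6 and 49.9 in KO-SFD, and 32.3, 34.3, 30.6 and 28.5 in KO-HFD. It fell in KO (log2 fold change -0.53, SE 0.103, edgeR adjusted p = 0.00886), and in WT, where it was the 1 listed gene that DESeq2 called, it had -0.44 (SE 0.103, edgeR adjusted p = 0.0525, DESeq2 adjusted p = 0.00410), again without overlap. Beside it, Cfd, an abundant adipocyte gene, was 6.51, 72.4, 8.09 and 73.0 FPM in WT-SFD, 5.00, 1.99, 1.14 and 2.05 in WT-HFD, 82.9, 15.5, 10.2 and 238 in KO-SFD, and 12.4, 10.3, 1.77 and 0 in KO-HFD, and was chosen after its values were seen. The 12 adipocyte markers did not move one way in the kidney: 11 were tested, with 1 higher and 1 lower in WT and 2 higher and 3 lower in KO at an unadjusted p under 0.05, and Lep, leptin, was called higher in KO (4.91). Their median log2 difference was -0.16 in WT and -0.69 in KO, and DESeq2 called 0 and 2 of them. Their sum was 2198 ± 1267 FPM in WT-SFD, 3089 ± 630 in WT-HFD, 1897 ± 512 in KO-SFD and 4342 ± 1901 in KO-HFD, led by Pck1, which the tubule also expresses. Their mean log2 value was 3.42 ± 1.27, 3.41 ± 0.533, 3.98 ± 1.46 and 3.65 ± 1.10 in the same order, and the part of adipocytes in the Slc2a4 result was not tested. Slc2a1 (GLUT1), the most abundant of this list per length at 24.6 RPKM, had -0.21 in WT and -0.34 in KO (edgeR adjusted p = 0.876 and 0.329).

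None of the 10 recycling genes, which return oxidised vitamin C to ascorbate, passed the test with edgeR. The thioredoxin reductases Txnrd1 and Txnrd2 had -0.32 (SE 0.101, edgeR adjusted p = 0.244) and -0.34 (SE 0.117, adjusted p = 0.320) in WT, and -0.10 (adjusted p = 0.677) and -0.30 (adjusted p = 0.216) in KO. Cyb561, an ascorbate-using membrane reductase, had -0.06 in WT and -0.38 in KO (SE 0.111, edgeR adjusted p = 0.0903). Gsr, glutathione reductase, led the list per length at 65.4 RPKM and had -0.35 in WT (SE 0.147, adjusted p = 0.521) and 0.00 in KO. At an unadjusted p under 0.05, 1 gene was higher and 3 were lower in WT, and 2 were higher and 2 lower in KO, and DESeq2 called 0 and 1.

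Enzymes that use ascorbate as a cofactor were likewise not called by edgeR: of 22 listed 17 were tested, with 2 higher and 1 lower at an unadjusted p under 0.05 in WT and 3 higher and 2 lower in KO, and DESeq2 called 0 and 2. P4ha2, a collagen prolyl hydroxylase, was 31.7 ± 2.01 and 27.0 ± 1.27 FPM in WT-SFD and WT-HFD, and 33.2 ± 1.37 and 26.6 ± 2.12 in KO-SFD and KO-HFD. Its groups did not overlap by diet, and its log2 fold changes were -0.23 (SE 0.0819, edgeR adjusted p = 0.363) and -0.32 (SE 0.0821, adjusted p = 0.0532). P3h2 and P3h3, prolyl 3-hydroxylases of collagen, had 0.41 and 0.31 in WT and 0.46 and 0.09 in KO (edgeR adjusted p = 0.561, 0.409, 0.220 and 0.741). Hpd, of tyrosine breakdown, had -0.18 in WT and -0.76 in KO (SE 0.248, edgeR adjusted p = 0.130), and Phyh, of phytanate oxidation and the most abundant at 212 RPKM, had -0.08 and 0.05.

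Transcription factors of the tubule and of lipid and redox responses were listed as well, and 0 of 6 passed the test with edgeR in either genotype (DESeq2 called 0 in WT and 1 in KO). Ppara, the fatty acid receptor, had 0.59 in WT (SE 0.288, edgeR adjusted p = 0.645) and 0.99 in KO (SE 0.290, adjusted p = 0.0909), where it was the 1 factor with an unadjusted p under 0.05. Nfe2l2 (NRF2) had 0.11 and -0.02. Hnf4a, the most abundant of them at 189 RPKM, had -0.06 and 0.14.

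In the aorta 39 of the 55 genes were tested, and edgeR called 0 in all 5 comparisons. For diet in WT, 8 were higher and 6 lower at an unadjusted p under 0.05, beside 17% of all genes tested, and DESeq2 called 5, beside 4.5%. In KO 3 were higher and 4 lower, beside 7.85% of all genes, and DESeq2 called 0, beside 0.0541%. KO against WT gave 1 higher and 1 lower on each diet and the interaction 0 higher and 1 lower, with 0 calls by DESeq2. Slc2a4 showed a wide spread, with 114, 78.1 and 24.5 FPM in WT-SFD, 11.9, 16.6, 16.7 and 21.6 in WT-HFD, 67.8, 41.5 and 16.9 in KO-SFD, and 22.6, 12.7, 16.6 and 15.7 in KO-HFD. The log2 fold change of Slc2a4 in WT was -2.12 (SE 0.446, edgeR adjusted p = 0.0674). The 12 adipocyte markers, summed, went with it at 4518, 3205 and 99.3 FPM in WT-SFD, 133, 120, 236 and 219 in WT-HFD, 2447, 811 and 98.2 in KO-SFD, and 74.6, 161, 128 and 54.0 in KO-HFD, led by Fabp4. Their part in the Slc2a4 result was not tested, and no Slc2a4 value with the adipocyte covariate is given here. Without WT-SFD replicate 3, the WT-SFD aorta with the low adipocyte sum, 10 of the listed genes were called for diet in WT, in a fit that called 12.4% of all 15329 genes it tested.

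Because Gulo is known from hepatocytes, liver markers were read beside it in the kidney. Of 18 listed 15 were tested, and edgeR called 3 higher and 0 lower on HFD in WT, and 3 higher and 1 lower in KO. DESeq2 called 3 in WT and 6 in KO. At an unadjusted p under 0.05, 7 were higher and 1 lower in WT, and 6 higher and 2 lower in KO. Over all genes tested that limit called 8.05% and 16.1%. The median log2 difference of the list was 0.50 in WT and 0.26 in KO. The 3 that rose in both were Gc, the vitamin D binding protein (2.2 in WT and 2.36 in KO), Ttr (1.55 and 2.33) and Fgb, a fibrinogen chain (2.21 and 2.58), and Itih1 fell in KO (-0.91). Alb, which defines hepatocytes most plainly, was 4.65 to 7.89 FPM in WT-SFD, 6.54 to 13.1 in WT-HFD, 4.40 to 7.04 in KO-SFD and 6.73 to 12.5 in KO-HFD, with 0.75 (edgeR adjusted p = 0.210, DESeq2 adjusted p = 0.0923) and 0.79 (edgeR adjusted p = 0.102, DESeq2 adjusted p = 0.0364). Apoh, a plasma glycoprotein of the liver, had 0.63 and 0.95 (edgeR adjusted p = 0.582 and 0.106, DESeq2 adjusted p = 0.450 and 0.0292). Fga, another fibrinogen chain, had 0.23 and 0.40. Ahsg, the abundant liver glycoprotein fetuin-A, summed to 2, 0, 6 and 3 reads in WT-SFD, WT-HFD, KO-SFD and KO-HFD, and was at 0 in all 4 WT-HFD kidneys. Summed over the list, liver markers reached 2030 ± 507 FPM in WT-SFD, 2068 ± 178 in WT-HFD, 1947 ± 228 in KO-SFD and 2044 ± 433 in KO-HFD (SD, n = 4 each), led by Cyp2e1 at 1180 FPM, which the proximal tubule also expresses. The sums overlapped between all groups. The mean log2 value over the list, in which each marker weighs the same, separated the diets as Gulo did, at 3.89 to 4.19 in WT-SFD, 4.01 to 4.36 in KO-SFD, 4.59 to 4.83 in WT-HFD and 4.40 to 4.80 in KO-HFD. Gc, Ttr and Fgb had the largest rises behind that mean in both genotypes, and the other markers did not move one way. In KO, F2 (-1.50), Itih1 (-0.91), Serpina1c (-0.38), Cyp2e1 (-0.34), Hpx (-0.28) and Serpina1a (-0.21) were lower on HFD. The remaining tested markers had 0.09 (Apoa2) to 0.95 (Apoh) there. The part of liver cells in the Gulo result was not tested.

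Proximal tubule markers were all tested, 12 of 12. Their summed level did not separate the diets, at 31504 to 44231 FPM in WT-SFD, 22679 to 36832 in WT-HFD, 29635 to 40062 in KO-SFD and 26227 to 36047 in KO-HFD. The means were 36310 ± 5608, 31191 ± 6013, 34982 ± 4441 and 31078 ± 4530 FPM in the same order (SD, n = 4 each), led by Kap, which had -0.41 in WT and -0.59 in KO (edgeR adjusted p = 0.83 and 0.302) and was lower in each KO-HFD than in each KO-SFD kidney. Calls by edgeR were 1 higher and 0 lower in WT, and 3 higher and 0 lower in KO. At an unadjusted p under 0.05 there were 3 higher and 1 lower in WT and 3 higher and 2 lower in KO, the lower ones being Slc22a12 (-0.61) in WT and Kap and Slc7a13 (-0.42) in KO, and DESeq2 called 1 and 3. The median log2 difference was -0.08 in WT and 0.12 in KO. Transporters that rose on HFD were Slc5a2, by 1.20 in WT (SE 0.206, edgeR adjusted p = 0.00533) and 1.54 in KO (SE 0.208, adjusted p = 0.000594), and in KO also Slc22a8, the organic anion transporter OAT3 (1.44, adjusted p = 0.000399), and Slc5a12, a lactate transporter (1.13, adjusted p = 0.0253).

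The 7 markers of the distal nephron and of podocytes were all tested. In WT 0 were called by edgeR or DESeq2 and 0 had an unadjusted p under 0.05, with a median of -0.17. In KO edgeR called 1, Slc12a3, the sodium chloride transporter of the distal tubule, as higher (0.71, edgeR adjusted p = 0.0124). There 3 were higher and 2 lower at an unadjusted p under 0.05, among the higher ones the podocyte gene Nphs1 (0.53), with a median of 0.03, and DESeq2 called 2. The lower ones were Umod, uromodulin of the thick ascending limb and the most abundant of the list at 4490 FPM, with -0.59 (SE 0.182, edgeR adjusted p = 0.107, DESeq2 adjusted p = 0.00696), and Slc12a1, the sodium potassium chloride transporter of the same segment, with -0.81 (SE 0.299, edgeR adjusted p = 0.191). The summed level was 6444 to 8671 FPM in WT-SFD, 5868 to 7610 in WT-HFD, 8733 to 9273 in KO-SFD and 4729 to 7633 in KO-HFD, so in KO each HFD kidney lay below each SFD kidney, while in WT the diets overlapped. The mean log2 value over the list overlapped between the diets in both genotypes. It was 8.23 to 8.53 in WT-SFD, 8.09 to 8.33 in WT-HFD, 8.12 to 8.32 in KO-SFD and 8.01 to 8.39 in KO-HFD.

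Markers of smooth muscle (6 tested), endothelium (5), macrophages (7), tubule injury (4) and adrenal gland (1) had 0 calls with edgeR in either genotype, and DESeq2 called 1, the injury marker Vcam1 in WT (0.60, DESeq2 adjusted p = 0.0367). At an unadjusted p under 0.05, 3 macrophage markers were higher in WT (Adgre1 0.56, C1qa 0.48 and C1qb 0.50), with a list median of 0.36, beside 1 injury marker, Vcam1. The macrophage sum was 129 ± 46.7 FPM in WT-SFD and 165 ± 33.0 in WT-HFD, with overlap. In KO 1 endothelial and 1 injury marker were higher, 1 injury and 1 smooth muscle marker were lower, and 0 macrophage markers had such a p. The adrenal marker had none in either genotype. The part of these cell types in the Gulo result was not tested.

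The genes next to Gulo on chromosome 14 did not share its pattern. Of 11 tested genes that start within 500 kb, 0 were called by edgeR for diet in WT or KO kidneys, with 1 higher and 0 lower in WT and 2 higher and 2 lower in KO at an unadjusted p under 0.05, and DESeq2 called 0 and 1. Clu, the chaperone clusterin that starts 18.3 kb below, had -0.11 in WT and 0.22 in KO, and on the other side Gm10233, a predicted gene, had -0.09 and -0.15 and Ephx2, an epoxide hydrolase, -0.16 and -0.32. Trim35, a ubiquitin ligase gene 310 kb above, had 0.47 (SE 0.152, edgeR adjusted p = 0.263) and 0.54 (SE 0.152, adjusted p = 0.0769). The lowest value was -1.35 for Chrna2, a nicotinic receptor subunit, in KO (edgeR adjusted p = 0.138), and the highest 0.96 for Pbk, a mitotic kinase, in KO (adjusted p = 0.227).

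**Figure D5:**
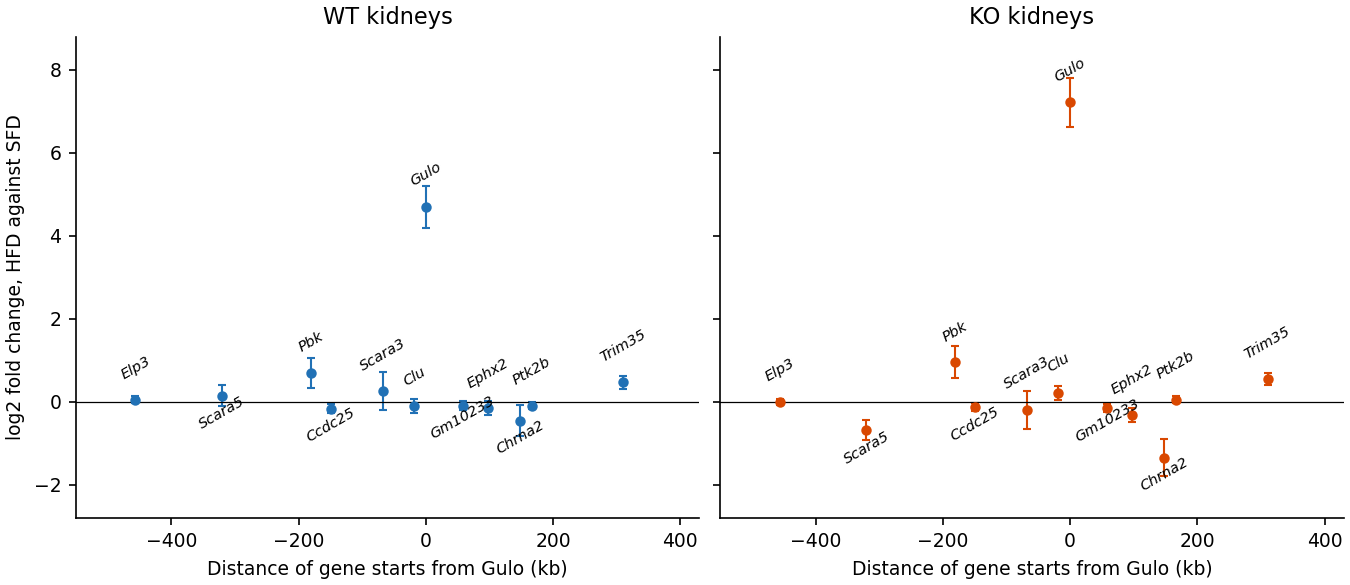
Fitted log2 fold change of HFD against SFD in the kidney (y axis, with SE as bars) against the distance of each gene's start from that of Gulo in kb (x axis), for Gulo and 11 tested neighbours, WT at left and KO at right. The neighbours lie between -1.35 (Chrna2 in KO) and 0.96 (Pbk in KO), Gulo at 4.70 and 7.22.

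Genes whose levels went most closely with Gulo over the 16 kidneys were named by Pearson's r of log2 CPM. They were chosen for this likeness, so r is a description, and it is high for any gene that separates the diets, since the kidneys form a low SFD and a high HFD set. The highest were Etv4 (0.96), Prodh2 (0.95), RP23.53N22.2 (0.95), Col8a1 (0.95), Tcf24 (0.94) and Pklr (0.94), and the lowest Fgfbp1 (-0.93), Cyp2d12 (-0.92) and Ndrg2 (-0.92). With Spearman's rho only 1 of the 6 highest and 0 of the 3 lowest stayed among those named, and the 1 was Etv4, which ranked first by both.

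Etv4, an ETS family transcription factor, was 0.705, 2.14, 0.925 and 1.70 FPM in WT-SFD, 4.12, 5.97, 3.41 and 3.97 in WT-HFD, 0.482, 0.377, 0.869 and 0.601 in KO-SFD, and 5.04, 7.61, 10.6 and 5.83 in KO-HFD. All HFD kidneys were above all SFD kidneys, and KO-HFD replicate 3 was the highest, as for Gulo. Within the 8 HFD kidneys r with Gulo was 0.85 for Etv4, 0.72 for Col8a1, 0.72 for Tcf24, 0.66 for Pklr, 0.52 for RP23.53N22.2 and 0.47 for Prodh2. Among the members it was -0.88 for Slc23a3, whose WT and KO mice form separate sets there, -0.85 for Slc23a1, 0.46 for Akr1a1 and -0.16 for Slc23a2 over the same 8 kidneys. KO-HFD replicate 3 was at the edge of these 8 for Gulo, Slc23a3, Slc23a1 and Akr1a1. Over the 8 SFD kidneys, with 0 to 5 Gulo reads each, r was 0.06 for Slc23a3, -0.02 for Slc23a1, 0.37 for Akr1a1 and 0.33 for Slc23a2. Prodh2, of hydroxyproline breakdown, had means of 58.9, 192, 57.6 and 207 FPM in WT-SFD, WT-HFD, KO-SFD and KO-HFD, and Pklr, the pyruvate kinase of liver and red cells, 34.7, 74.1, 34.6 and 85.6. In the opposite direction Cyp2d12, a cytochrome P450, had means of 177, 38.8, 142 and 32.5 FPM.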

How the data were processed

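The authors sequenced rRNA-depleted total RNA, aligned it to GRCm38/mm10 with TopHat and counted reads per gene with featureCounts, after trimming with cutadapt. The deposited values are raw counts, 1 column per mouse, not normalised. Genes were annotated with BiomaRt. Strand setting, the gene models used for counting and treatment of multi-mapping reads are not given in the sources used here. Here R 4.3.3 with edgeR 4.0.16 was used: TMM factors, filterByExpr, glmQLFit and glmQLFTest with 1 coefficient per group, per tissue, and Benjamini-Hochberg adjustment over all genes tested (15034 in the kidney, 14796 in the aorta). Calls were made at an adjusted p below 0.05. SE is the log2 fold change divided by the root of F. RPKM used exon lengths of GENCODE vM21, which also gave positions and held 40254 of the 41128 identifiers, and 5 listed genes were matched by identifier under older symbols. Floors are 3 counts. No columns were left unused, and no 2 libraries of a group were copies (smallest chi-square per gene 11.0 in the kidney and 8.48 in the aorta). Genes of chromosomes 9, X, Y and MT, and part of 8, have 0 counts throughout. The scripts were tested on simulated data.

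The labels name single mice, numbered in accession order within groups. Members and lists were chosen with earlier results of these data known. Named were all members, Egfr, per pathway list the genes with the 2 smallest p per kidney diet comparison, those called and the 2 most abundant per length, the 6 genes most and 3 least correlated with Gulo (prior count 2), tested genes within 500 kb of Gulo, and the leading and defining markers of cell types. Cfd, Apoh, Slc22a8, Slc5a12, Slc22a12, Slc7a13, Slc12a1, Slc12a3, Nphs1, Vcam1, Adgre1, C1qa, C1qb, Lep, Gc, Ttr, Fgb and Itih1 were named after their values were seen. Slc5a2 was named outside these rules as well. DESeq2 1.42.0, RLE factors, library totals, no filter, a limit of 0.001, an adipocyte covariate (aorta) and leaving out each library were alternatives. For Gulo the planned tests of genotype on SFD and of the interaction are not given, since its SFD counts are too low. No sequence is printed.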

Additional observations from a re-analysis of the deposited data

Results flagged for a closer look

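In each group of 4 mice, the values of the 5 members and of Egfr, Slc2a2, Slc2a4, Cfd and Etv4 were examined by Dixon's ratio. It marks a single mouse far from the others, and 4 of 60 groups held one. Chance marks about 1 in 20 for normally spread values, a rate that does not hold for groups of counts near 0. Gulo stood out in the aorta in WT-HFD replicate 4, at 0.384 FPM, and in KO-HFD replicate 1, at 0.122 FPM, with the other 3 aortae of each group at 0. Slc2a2 stood out in the aorta in WT-HFD replicate 3, at 0.209 FPM with the others at 0. These 3 values rest on 3 reads or fewer, and with the other mice at 0 the ratio is 1 for any count. In the kidney Slc2a4 stood out in WT-HFD replicate 1, at 31.3 FPM, with the nearest mouse at 28.3 FPM.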

How the results depend on the processing

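The count of members called for genotype or interaction was 0 under every alternative run. Of the other pathway genes, edgeR called 0 in the kidney for diet in WT, 1 with RLE size factors, 1 with DESeq2 and 0 to 1 with each library left out (1 without WT-SFD replicate 1 or 2). In KO kidneys 2 were called, 6 with DESeq2, 0 at an adjusted p under 0.001 and 2 to 3 with each library left out. In the aorta for diet in WT 0 were called, 2 with library totals in place of TMM, 5 with DESeq2, 2 without the low count filter and 0 to 10 with each library left out. With each library left out, the Gulo ratio of HFD to SFD in KO ran from 128 to 371, that of WT to KO on SFD from 2.57 to 7.89 and that of KO to WT on HFD from 1.37 to 1.93. The latter pair were added after the data were seen. Library totals moved the median of all aorta genes by 0.29 for genotype on SFD and -0.22 for the interaction, and turned uncalled values there: Akr1a1 to 0.20 and Slc23a2 to 0.21 on SFD, Slc23a2 to 0.032 on HFD, and Akr1a1 to -0.12 and Slc23a2 to -0.18 for the interaction. The adipocyte covariate turned Slc23a2 for diet in WT to -0.019 and Slc23a1 on HFD to -0.041. Leaving out single libraries turned small diet differences in the kidney, which were not tested (Slc23a1 in WT -0.032 to 0.12 and in KO -0.10 to 0.053, Slc23a3 in KO -0.15 to 0.073), and small uncalled values there (Slc23a1 on SFD -0.16 to 0.0074 and interaction -0.16 to 0.0042, Slc23a2 on HFD -0.19 to 0.0035, Akr1a1 on HFD -0.015 to 0.26) and in the aorta (on HFD Slc23a1 -0.21 to 0.12, Akr1a1 -0.023 to 0.055 and Slc23a2 -0.11 to 0.0026, Slc23a2 interaction -0.023 to 0.091, Slc23a1 for diet in KO -0.34 to 0.19). The cause of these turns was not tested. Gulo in SFD kidneys and in the aorta is limited by depth, at 0 to 5 reads per library. No pairing of mice between groups was possible, because the replicate numbers only name mice in accession order. The 3 mice with both tissues pair the tissues, which were not compared by a test.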

Other observations

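Slc23a4, the remaining gene of the transporter family, which the files hold under its older symbol 2010107G12Rik, summed to 27, 26, 23 and 26 reads in the kidneys of WT-SFD, WT-HFD, KO-SFD and KO-HFD mice and was below the filter.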
